A study of Mus musculus with 10 samples.

Results

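Hox genes encode homeodomain transcription factors that give cells along the head-to-tail axis their segmental identity. In the mouse they lie in the clusters HoxA, HoxB, HoxC and HoxD, and their order along each cluster, from the low to the high paralog groups, matches the order of their expression domains from hindbrain to tail. The caudal limit of a piece of spinal cord can thus be read from the highest paralog groups it expresses. In the lumbar cord, the Hox9 and Hox10 genes mark the thoracic-to-lumbar boundary and the lumbar motor columns, Hox11 genes the lumbosacral levels, and Hox13 genes the end of the axis.

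The 38 listed Hox genes, chosen by name from the 54146 genes of the deposited count table, comprise 10 genes of HoxA (chromosome 6:52162417-52260880, GRCm38), 10 of HoxB (chromosome 11:96194316-96368256), 9 of HoxC (chromosome 15:102921103-103036852) and 9 of HoxD (chromosome 2:74668310-74765142). The tissue was lumbar spinal cord with the dorsal root ganglia left on, from 5 control and 5 Dot1l-cKO embryos at E12.5. DOT1L is the methyltransferase of lysine 79 of histone H3. The Dot1l-cKO embryos were Wnt1cre2/+; Dot1lfl/fl, with a Cre transgene driven by Wnt1 regulatory sequence, active mostly in dorsal cells of the neural tube and in the neural crest, so that only some of the cells in each sample were its target. The transgene lies in E2f1 and the controls did not carry it, so its presence and the loss of Dot1l cannot be told apart. Litter 1 held 3 embryos of each genotype, with controls that carried 2 floxed Dot1l alleles, and litter 2 held 2 of each, with controls that carried 1. The embryos are called control 1 to 3 and Dot1l-cKO 1 to 3 (litter 1), and control 4 and 5 and Dot1l-cKO 4 and 5 (litter 2). Levels are in CPM, read counts divided by library size after TMM scaling, and levels of different genes are compared only in CPM per kilobase (kb) of annotated exon. Total counts lay between 40949585 and 68928443 per embryo, of which the Hox genes took 0.229 to 0.251%.

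Dot1l itself did not pass the test between genotypes (log2 fold change 0.17, edgeR adjusted p = 0.128). Within litter 2 alone it was called higher in the Dot1l-cKO (0.29, edgeR adjusted p = 0.0240). Since the count covers the whole gene, it does not check the deletion of the floxed part. Dot1l-cKO 4 and 5 had 6.00 and 6.79 CPM of Xist and 46.7 and 41.5 CPM of the Y-linked Ddx3y, while the other 8 embryos had at least 499 CPM of Xist and at most 0.243 CPM of Ddx3y, so in litter 2 genotype and sex cannot be told apart. The markers of neural tube summed to between 4092 and 4852 CPM, and the forebrain and midbrain genes Otx2 and Emx2 did not pass the filter on low counts. In such bulk samples, fewer cells of a type and less RNA per cell cannot be told apart.

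MicroRNAs of the miR-196 and miR-10 families are encoded within the Hox clusters and pair with Hox messenger RNAs; cleavage of the Hoxb8 messenger RNA directed by miR-196 is the best known case. Their sequences are shown here because Hoxb8 was the Hox gene with the clearest increase, and the locus of one of them decreased, as described further on. RefSeq gives the mature sequences (GRCm38.p6, 5′ to 3′), with the seed, bases 2 to 8, in capitals. miR-196a is encoded by Mir196a-1, in HoxB between Hoxb13 and Hoxb9 (the mature part at chr11:96265187-96265208, plus strand), and by Mir196a-2 in HoxC (chr15:102973365-102973386, plus strand). miR-196b is encoded in HoxA (chr6:52230129-52230150, minus strand). miR-10a is encoded in HoxB (chr11:96317186-96317208, plus strand) and miR-10b in HoxD (chr2:74726074-74726096, plus strand). The miR-196 sequences share 1 seed and the miR-10 sequences another.
miR-196a-5p: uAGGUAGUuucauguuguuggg
miR-196b-5p: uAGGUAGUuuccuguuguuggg
miR-10a-5p: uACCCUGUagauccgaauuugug
miR-10b-5p: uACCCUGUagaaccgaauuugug

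The 3′ untranslated region (UTR) of Hoxb8 holds a stretch of 22 bases (chr11:96284888-96284909, plus strand, in the exon with the stop codon, starting 418 bases after it) that pairs with miR-196a over its whole length, by 21 Watson-Crick pairs and 1 G:U pair. The bases that face the seed are in capitals.
Hoxb8 site: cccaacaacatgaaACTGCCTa
Among the 3′ UTRs of 20917 protein-coding genes (the longest annotated for each), 2 held a window paired at all 22 positions: Hoxb8, and Rps6ka2 with 12 Watson-Crick and 10 G:U pairs. The next best among the 38 Hox genes, Hoxa10 and Hoxd3, paired at 19 positions. Exact 7-base matches to the miR-196 seed were found in the 3′ UTRs of 8 of the 38 Hox genes and of 6.09% of all 21027 protein-coding genes with a 3′ UTR. Hoxa7 had 4 of them, Hoxc8 had 2, and Hoxa4, Hoxa5, Hoxa9, Hoxb1, Hoxb6 and Hoxb7 had 1 each. The 4 matches of Hoxa7 lie within a short stretch of its 3′ UTR on the minus strand, at chr6:52215400-52215421, chr6:52215363-52215384, chr6:52215231-52215252 and chr6:52215210-52215231 from 5′ to 3′, with the bases that match the seed in capitals.
Hoxa7 site 1: ggcacagccaaaatACTACCTa
Hoxa7 site 2: agaggcactcccaaACTACCTa
Hoxa7 site 3: aaaccatgatcaatACTACCTa
Hoxa7 site 4: actactagccctaaACTACCTa
The seed match of miR-10 was found in 3 Hox genes, Hoxa3, Hoxb3 and Hoxd1, and in 2626 of the 21027 protein-coding genes. These are matches of letters in the annotation, not measured sites, and mature microRNAs were not measured here.

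The Hox code of the control cords was first described by level. Per kb of exon, Hoxb9 stood highest, at 211 ± 17.7 CPM per kb (SD, n = 5), followed by Hoxb8 at 140 ± 27.8, and the ranges of the 5 controls did not overlap between these genes or between Hoxb8 and the next. Hoxc10 came next at 80.7 ± 15.3 CPM per kb and then Hoxd10 at 72.8 ± 8.74, with overlapping ranges. Of the 38 genes, 2 exceeded 100 CPM per kb, 20 lay between 10 and 100, 14 between 1 and 10, and 2, Hoxa13 and Hoxd4, below 1. Between neighbours in the order of levels, the ranges of the 5 controls were separate at 6 of 37 steps, so most of the order among the middle genes is within the spread between embryos. The highest gene of each cluster was Hoxb9, Hoxa10, Hoxc10 and Hoxd10.

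HoxB genes made up 48.6% ± 2.84 (SD, n = 5) of the summed Hox level per kb in the controls, HoxC 21.5% ± 1.33, HoxA 16.0% ± 1.57 and HoxD 13.9% ± 0.55. By paralog group, Hox9 genes contributed 29.3% ± 1.86, Hox10 genes 19.96% ± 1.75 and Hox8 genes 17.3% ± 3.17, while groups 1 to 4 together contributed 6.09% ± 0.94 and groups 11 to 13 together 8.56% ± 1.72. Hoxb9 and Hoxb8 alone were 35.9% ± 2.59 of the sum. The cords thus had their highest Hox levels in groups 8 to 10.

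The share of the paralog groups 9 to 13 was 57.8% in the controls and 50.3% in the Dot1l-cKO cords on average. It was 56.0, 56.7, 58.4, 59.7 and 58.4% in controls 1 to 5, and 46.7, 48.8, 50.4, 52.7 and 52.9% in Dot1l-cKO 1 to 5. The genotypes did not overlap. The share of Hoxb9 was lower in every Dot1l-cKO embryo (13.6 to 17.9%) than in every control (20.6 to 22.8%), the share of Hoxb8 was higher within each litter (21.7 to 24.9% against 15.6 to 17.7% in litter 1, and 15.8 to 16.4% against 10.9 to 10.97% in litter 2), and the sum of both was 36.4% ± 2.61 in the Dot1l-cKO against 35.9% ± 2.59 in the controls. Without Hoxb8 and Hoxb9, the share of groups 9 to 13 was 54.2 to 59.2% in controls and 52.4 to 55.1% in Dot1l-cKO cords. These ranges overlapped across litters, but within each litter the genotypes were still separate, with 56.96 to 59.2% against 52.98 to 55.1% in litter 1 and 54.2 to 55.7% against 52.4 to 53.3% in litter 2. These shares are descriptions, with no test.

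**Figure D1:**
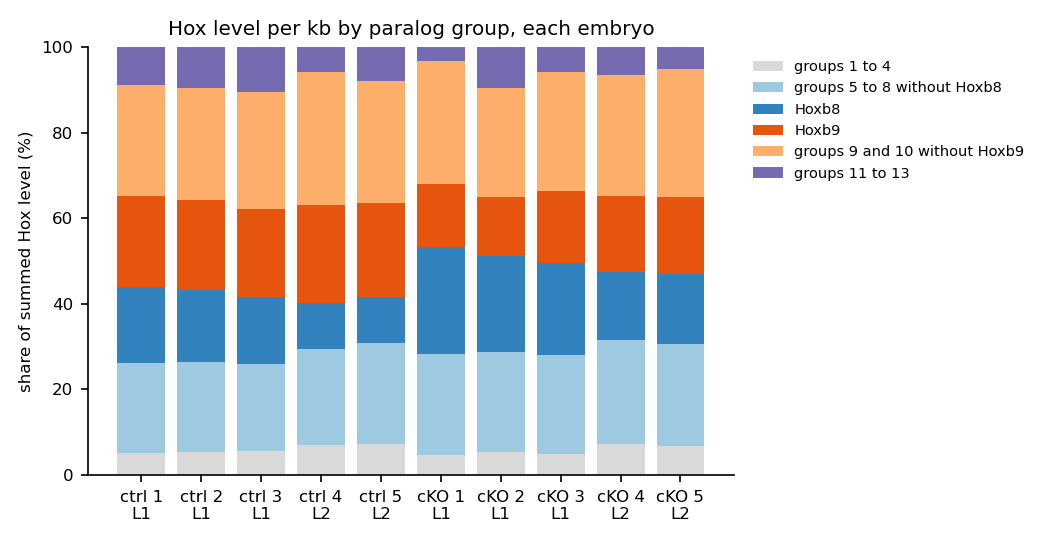
Share of the summed Hox level (CPM per kb of exon, in percent) taken by each set of paralog groups in each of the 10 embryos, with Hoxb8 and Hoxb9 drawn on their own. The Hoxb8 band (blue) is wider and the Hoxb9 band (orange) narrower in the Dot1l-cKO embryos than in the controls of the same litter, from 10.9 to 17.7% and 20.6 to 22.8% in controls to 15.8 to 24.9% and 13.6 to 17.9% in Dot1l-cKO.

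The first comparison asked which Hox genes differ between Dot1l-cKO and control cords once the litter is taken into account. Of the 38 genes, 37 passed the filter on low counts, and 13 passed the edgeR test at an adjusted p of 0.05, which is 35.1% of those tested, beside 3.19% of all 18901 genes tested. Higher in the Dot1l-cKO were 5 genes, Hoxa7, Hoxb2, Hoxb5, Hoxb6 and Hoxb8 (1.99% of all genes were called higher), and lower were 8, Hoxa2, Hoxa11, Hoxb4, Hoxb9, Hoxc5, Hoxc6, Hoxc11 and Hoxd3 (1.2% of all genes were called lower). All members that rose belong to paralog groups 2 and 5 to 8, and 4 of the 5 to HoxB, where genes that rose and genes that fell are neighbours. Among the 9 genes of groups 11 to 13 that were tested, all fold changes were negative, with a median log2 fold change of -0.73, and 2 passed the test. The median over the 37 genes was -0.07, beside -0.01 over all genes.

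**Figure D2:**
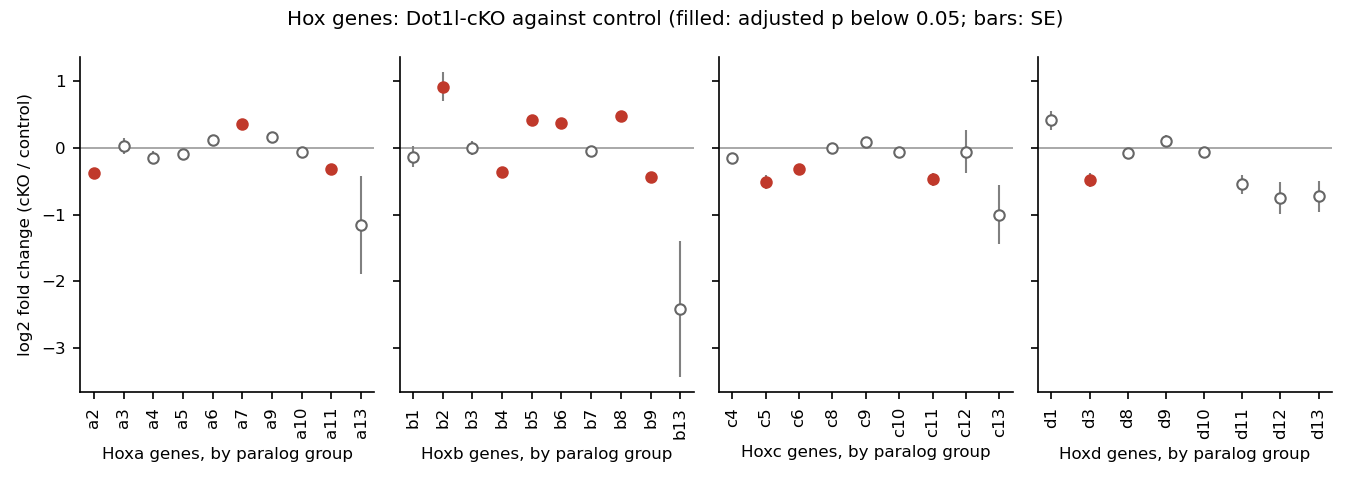
Log2 fold change of Dot1l-cKO over control for the 37 Hox genes tested, by cluster and paralog group, with standard errors from the edgeR fit with the litter in the model. Filled points are the 13 genes with an adjusted p below 0.05; in HoxB, Hoxb2, Hoxb5, Hoxb6 and Hoxb8 lie above the line and Hoxb4 and Hoxb9 below it, and every gene of groups 11 to 13 lies below it.

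Hoxb8 acts in the thoracic and lumbar cord, and its loss in the mouse is known to disturb the dorsal horn. It stood at 433, 439 and 392.4 CPM in controls 1 to 3 and at 642, 587 and 532 CPM in Dot1l-cKO 1 to 3, and in litter 2 at 304 and 281 CPM in controls and at 389.9 and 435 CPM in Dot1l-cKO. Within each litter every Dot1l-cKO embryo was above every control, while litter 2 was lower as a whole. The log2 fold change was 0.48 ± 0.06 (SE, edgeR adjusted p = 0.00188). The next gene towards the caudal end, Hoxb9, of the group that marks thoracic levels, went the other way. It stood at 508, 531 and 506 CPM in controls 1 to 3 and at 373, 347 and 399.7 CPM in Dot1l-cKO 1 to 3, and at 617 and 554 against 431 and 465 CPM in litter 2. All 5 Dot1l-cKO embryos were below all 5 controls, and the log2 fold change was -0.43 ± 0.05 (SE, adjusted p = 0.00188). Hoxb8 and Hoxb9 lie 5.31 kb apart. The ratio of Hoxb9 to Hoxb8, both per kb, was between 1.203 and 2.07 in the controls and between 0.594 and 1.13 in the Dot1l-cKO.

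Hoxb5 and Hoxb6, factors of the cervical and brachial levels, rose with Hoxb8. Hoxb5 stood at 41.7, 42.1 and 43.0 CPM in controls 1 to 3 and at 53.3, 61.9 and 51.1 CPM in Dot1l-cKO 1 to 3, and at 41.6 and 39.9 against 52.3 and 59.5 CPM in litter 2 (log2 fold change 0.42 ± 0.06, adjusted p = 0.00526). Hoxb6 stood at 81.9, 92.9 and 92.3 against 122, 125 and 112 CPM in litter 1 and at 89.5 and 89.0 against 108 and 113 CPM in litter 2 (0.38 ± 0.05, adjusted p = 0.00420). For both genes the 5 Dot1l-cKO embryos were above the 5 controls, and the litters were alike. Hoxb7, between Hoxb6 and Hoxb8 on the chromosome, had a log2 fold change of -0.05 ± 0.06 (adjusted p = 0.630), with 52.5 to 62.9 CPM in controls and 52.2 to 57.2 CPM in Dot1l-cKO. Hoxa7, the gene with 4 seed matches of miR-196, stood at 43.9, 49.3 and 45.2 against 64.4, 60.7 and 50.5 CPM in litter 1 and at 50.4 and 49.2 against 61.5 and 67.2 CPM in litter 2 (0.35 ± 0.06, adjusted p = 0.0203), with no overlap between genotypes. Of the 5 genes that rose, 2 hold seed matches of miR-196, Hoxb6 and Hoxa7, while Hoxb8 holds the fully paired site but no exact seed match. Of the 8 that fell, none holds a seed match, and of the other 25, 6 do. The part of miR-196 in these differences was not tested.

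Hoxb2, best known for its part in hindbrain segments, had the largest log2 fold change of the genes called and the least regular pattern. It stood at 7.89, 12.53 and 12.9 CPM in controls 1 to 3 and at 17.0, 27.3 and 10.4 CPM in Dot1l-cKO 1 to 3, and at 10.7 and 12.52 against 23.3 and 30.6 CPM in litter 2 (0.92 ± 0.22, adjusted p = 0.0427). Dot1l-cKO 3 lay within the controls and the other 4 above them. Hoxd4, the gene that did not pass the filter, had 1, 3, 7, 1 and 4 counts in controls 1 to 5 and 2, 34, 1, 28 and 53 counts in Dot1l-cKO 1 to 5. The 3 embryos with the highest Hoxd4 counts, Dot1l-cKO 2, 4 and 5, were also the 3 with the highest Hoxb2. Of the exon bases of Hoxd4, 52.3% are shared with other genes of the same strand, Hoxd3 among them, and its counts are uncertain for that reason. For Hoxb2, 27.3% of exon bases face Hoxb3os on the other strand, and for Hoxa7, 20.4% face Hoxaas3; whether reads were counted by strand is not given in the sources used here, so these pairs cannot be told apart in the counts.

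**Figure D3:**
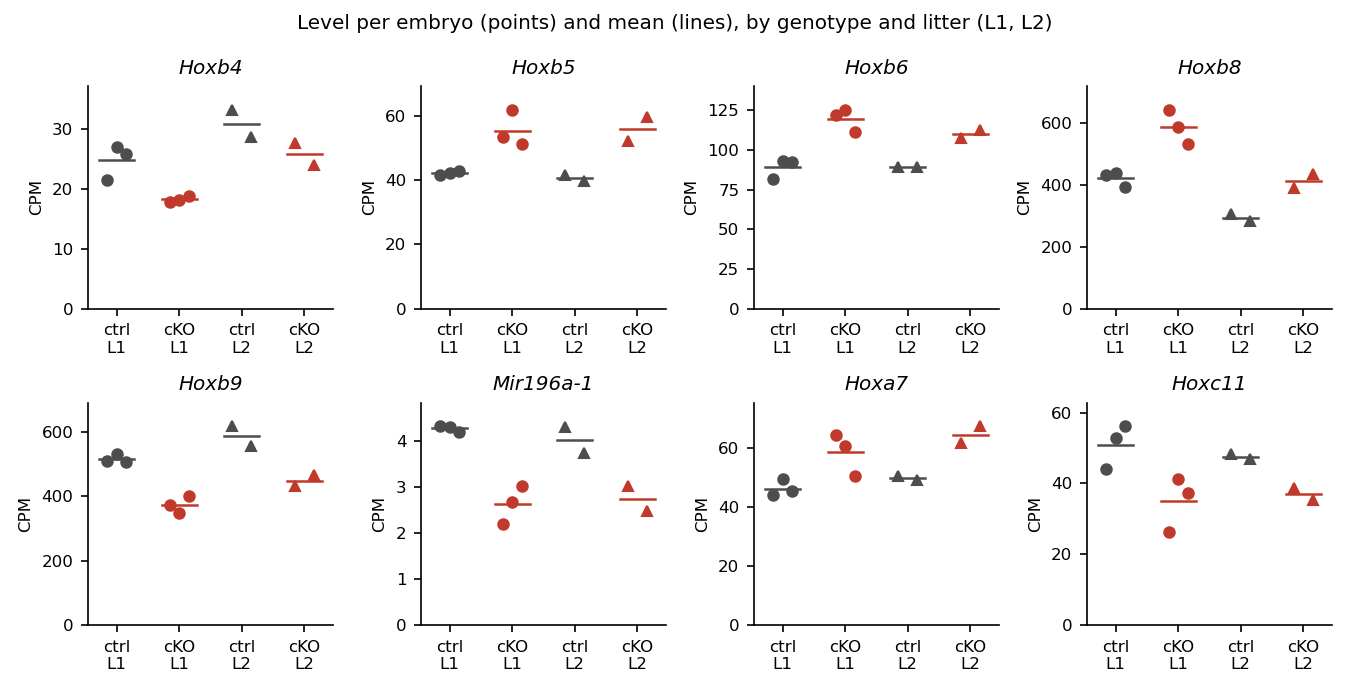
Level in CPM of 7 Hox genes and of the Mir196a-1 row in each embryo (points), with means (lines), for control (grey) and Dot1l-cKO (red) embryos of litter 1 (L1, circles) and litter 2 (L2, triangles); axes start at 0. Hoxb5, Hoxb6, Hoxb8 and Hoxa7 lie higher and Hoxb4, Hoxb9, Hoxc11 and Mir196a-1 lower in the Dot1l-cKO within each litter.

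The genes of the rostral groups that fell were Hoxa2, Hoxb4 and Hoxd3, which act in hindbrain and neck. Hoxa2 stood at 10.6, 12.9 and 11.5 CPM in controls 1 to 3 and at 8.24, 8.38 and 9.27 CPM in Dot1l-cKO 1 to 3, and at 17.4 and 18.6 against 14.99 and 14.4 CPM in litter 2 (log2 fold change -0.38 ± 0.07, adjusted p = 0.0272). Hoxb4 stood at 21.5, 27.0 and 25.8 against 17.8, 18.1 and 18.8 CPM in litter 1 and at 33.2 and 28.6 against 27.7 and 24.0 CPM in litter 2 (-0.37 ± 0.08, adjusted p = 0.0306). Hoxd3 stood at 17.1, 15.01 and 19.0 against 10.3, 13.8 and 14.8 CPM in litter 1 and at 24.3 and 20.7 against 16.1 and 13.2 CPM in litter 2 (-0.48 ± 0.11, adjusted p = 0.0350). In all 3 genes the genotypes were separate within each litter, and for Hoxa2 the litters differed by more than the genotypes did. Of the exon bases of Hoxd3, 62.3% are shared with other genes of its strand, which makes its count uncertain.

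In HoxC, the genes called were Hoxc5 and Hoxc6, of the cervical and brachial levels, and Hoxc11. Hoxc5 stood at 6.83, 7.99 and 8.02 against 4.40, 5.48 and 6.14 CPM in litter 1 and at 14.5 and 12.3 against 9.98 and 8.80 CPM in litter 2 (-0.51 ± 0.10, adjusted p = 0.0264). Hoxc6 stood at 35.0, 33.9 and 30.9 against 28.2, 26.9 and 30.1 CPM in litter 1 and at 62.4 and 55.3 against 41.0 and 45.8 CPM in litter 2 (-0.31 ± 0.06, adjusted p = 0.0306). Both were separate by genotype within each litter. Hoxc11, which acts in the lumbosacral cord and hindlimb, stood at 44.1, 52.7 and 56.1 against 26.3, 41.1 and 37.3 CPM in litter 1 and at 48.2 and 47.0 against 38.7 and 35.3 CPM in litter 2 (-0.47 ± 0.10, adjusted p = 0.0324), and all Dot1l-cKO embryos were below all controls. Its paralog Hoxa11 fell too, from 19.9, 22.1 and 22.2 to 16.2, 18.9 and 17.6 CPM in litter 1 and from 26.8 and 21.9 to 20.6 and 17.1 CPM in litter 2 (-0.32 ± 0.08, adjusted p = 0.0457), with 35.0% of its exon bases facing Hoxa11os. The remaining gene of the group, Hoxd11, did not pass the edgeR test but was called lower by DESeq2, with 25.2, 28.3 and 38.0 against 14.2, 25.2 and 20.9 CPM in litter 1 and 28.9 and 28.3 against 23.9 and 17.7 CPM in litter 2 (-0.55 ± 0.14, adjusted p = 0.0539).

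Without a test, the embryos can also be compared by overlap alone. In 14 of the 37 genes, 5 with higher and 9 with lower levels in the Dot1l-cKO, the genotypes were separate in both litters in the same direction, beside 8.1% of all genes. In 6 genes, Hoxa7, Hoxb5 and Hoxb6 above and Hoxb9, Hoxc11 and Hoxd11 below, the 5 Dot1l-cKO embryos were separate from the 5 controls across both litters, beside 1.92% of all genes. All 13 genes called had fold changes of the same sign in both litters. Within litter 1 alone (3 against 3 embryos), Hoxb9 was the only Hox gene that passed the edgeR test (adjusted p = 0.0440), beside 0.0623% of all genes, and 11 passed within litter 2 alone (2 against 2), beside 5.13% of all genes. In litter 2 genotype and sex cannot be told apart. Of these 11, 10 are among the 13. No Hox gene passed the edgeR test of whether the genotype effect differed between litters, beside 0.0106% of all genes, and 2, Hoxa5 and Hoxa9, had an unadjusted p below 0.05; DESeq2 called 0. With no litter in the model no Hox gene passed, and 13 had an unadjusted p below 0.05.

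The calls differed in how far they rested on single embryos. Hoxb5, Hoxb6, Hoxb8 and Hoxb9 passed in each of the 10 fits that left out 1 embryo, with a highest adjusted p of 0.0243. The number of Hox genes called fell from 13 to 5 without control 1, to 6 without control 3, to 5 without control 4, to 7 without control 5, to 6 without Dot1l-cKO 1 and to 4 without Dot1l-cKO 5. Hoxa7 was not called without control 1, control 4 or Dot1l-cKO 5 (adjusted p up to 0.0728). Hoxc5 and Hoxc6 were each called in 5 of the 10 fits, Hoxa2 and Hoxb4 in 5, Hoxc11 and Hoxd3 in 4 and Hoxa11 in 2 of 10, and each was lost without Dot1l-cKO 5 (adjusted p up to 0.132). Hoxb2 was called only without Dot1l-cKO 3 (adjusted p = 0.00241). The log2 fold change of Hoxb8 lay between 0.45 and 0.52 over these fits and that of Hoxb9 between -0.46 and -0.40.

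The most caudal genes differed strongly between embryos. Hoxb13 stood at 9.50, 14.2 and 6.07 CPM in controls 1 to 3, at 0.117, 8.34 and 0.143 CPM in Dot1l-cKO 1 to 3, at 0 and 5.87 CPM in controls 4 and 5 and at 0.176 and 0 CPM in Dot1l-cKO 4 and 5, where a count of 0 allows up to 3 counts, or 0.0586 CPM in control 4 and 0.0488 CPM in Dot1l-cKO 5. So 5 embryos, controls 1, 2, 3 and 5 and Dot1l-cKO 2, had Hoxb13 messenger RNA well above the rest. The same 5 embryos had the highest Hoxa13, at 2.14, 2.09, 1.98, 1.06 and 2.06 CPM against 0.0499 to 0.741 CPM in the others, and the highest Hoxc13, at 34.5, 40.2, 45.3, 31.7 and 30.9 CPM against 2.96 to 17.1 CPM. Hoxd13 did not follow this order, with 3 of its 5 highest embryos among them and a range of 1.23 to 7.00 CPM. The log2 fold changes between genotypes were -2.42 ± 1.02 for Hoxb13 (adjusted p = 0.184), -1.16 ± 0.74 for Hoxa13 (0.383), -1.001 ± 0.44 for Hoxc13 (0.197), -0.73 ± 0.23 for Hoxd13 (0.0871) and -0.75 ± 0.25 for Hoxd12 (0.102). None passed the edgeR test, while DESeq2 called Hoxd13 lower.

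**Figure D4:**
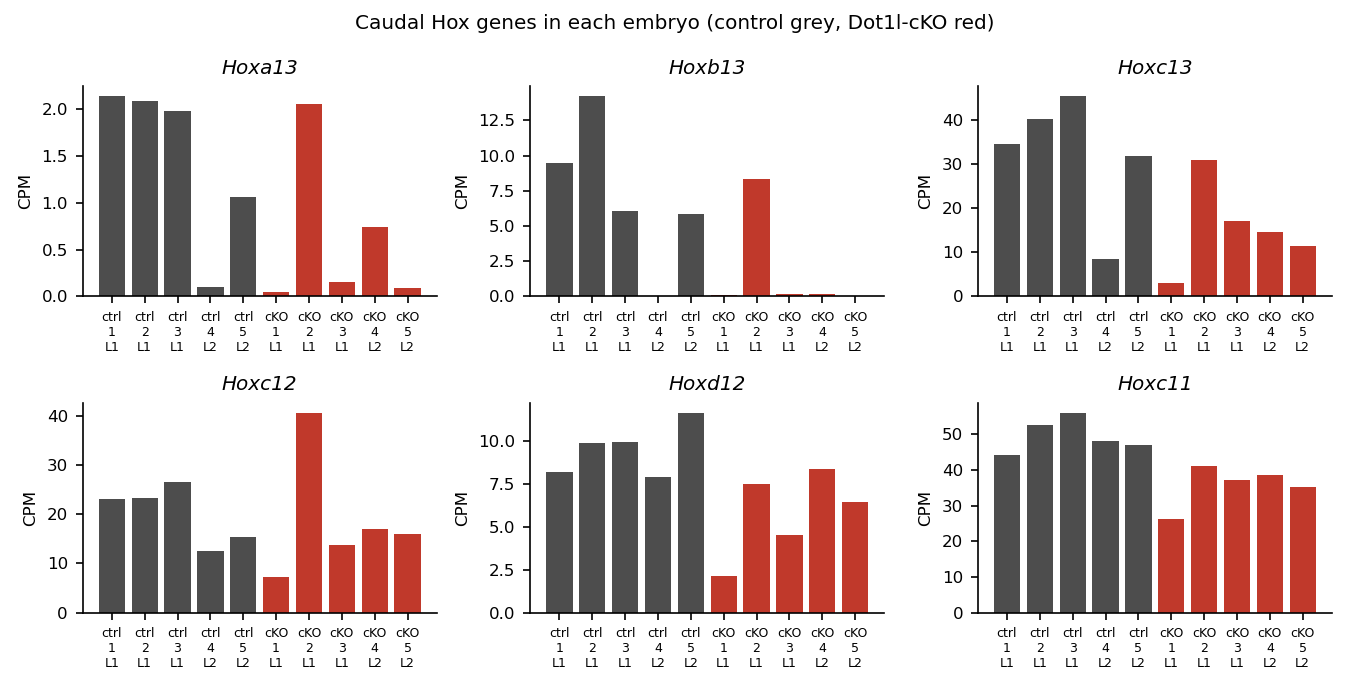
Level in CPM of 6 caudal Hox genes in each of the 10 embryos (control grey, Dot1l-cKO red; L1 and L2 are the litters). The bars of Hoxa13, Hoxb13 and Hoxc13 are tall in controls 1, 2, 3 and 5 and in Dot1l-cKO 2, while those of Hoxc11 are taller in all 5 controls, 44.1 to 56.1 CPM, than in all 5 Dot1l-cKO embryos, 26.3 to 41.1 CPM.

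Hoxd12 stood at 8.24, 9.92 and 9.98 against 2.15, 7.50 and 4.54 CPM in litter 1 and at 7.93 and 11.7 against 8.38 and 6.45 CPM in litter 2, and Hoxc12 between 7.23 CPM in Dot1l-cKO 1 and 40.6 CPM in Dot1l-cKO 2, with 12.47 to 26.6 CPM in controls. The high Hox13 levels were found in 4 of 5 controls and 1 of 5 Dot1l-cKO embryos, and in litter 2 in 1 of 2 controls and 0 of 2 Dot1l-cKO embryos. In an alternative chosen after the data were seen, the mean log2 level of Hoxa13, Hoxb13 and Hoxc13 of each embryo entered the model beside litter and genotype, and 7 Hox genes passed. Hoxb2, Hoxb5, Hoxb6 and Hoxb8 were called higher and Hoxb9, Hoxc6 and Hoxc4 lower, with log2 fold changes of 0.44 for Hoxb8 (adjusted p = 0.0219) and -0.49 for Hoxb9 (adjusted p = 0.00525), while Hoxc11 was at -0.32 (adjusted p = 0.154) and Hoxa11 at -0.31 (adjusted p = 0.119). Dot1l-cKO 2, the Dot1l-cKO embryo with the highest Hoxa13, Hoxb13 and Hoxc13 (the first and second within the range of the litter 1 controls, Hoxc13 below it), had 587 CPM of Hoxb8, 347 CPM of Hoxb9 and 41.1 CPM of Hoxc11, outside the ranges of these controls in the direction of the other Dot1l-cKO embryos. In Dot1l-cKO 2, Hoxc11 was the highest of the 5 Dot1l-cKO embryos. Hoxd11 in this embryo, at 25.18 CPM, lay just below the lowest control, at 25.19 CPM. Control 4, with no Hoxb13 counts, had 48.2 CPM of Hoxc11, within the range of the other controls. The part of the axial level dissected in the differences between genotypes was not tested.

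The genes with the highest level in HoxA, HoxC and HoxD, all of paralog group 10, which gives lumbar motor neurons their identity, had small differences between genotypes. Hoxa10 stood at 122, 132 and 128 against 128, 128 and 131 CPM in litter 1 and at 169 and 146 against 133 and 149 CPM in litter 2 (log2 fold change -0.06 ± 0.05, adjusted p = 0.584). Hoxc10 stood at 123, 139 and 149.6 against 142, 131 and 138 CPM and at 201 and 158 against 151 and 174 CPM (-0.06 ± 0.07, adjusted p = 0.684). Hoxd10 stood at 118, 134 and 151 against 149, 124 and 129 CPM and at 144 and 114 against 115 and 119.9 CPM (-0.06 ± 0.08, adjusted p = 0.713). The genotypes overlapped in all 3 genes. Of the Hox9 genes other than Hoxb9, Hoxa9, Hoxc9 and Hoxd9 had log2 fold changes of 0.16, 0.09 and 0.11, and none passed the test. The remaining genes that did not pass, Hoxa3, Hoxa4, Hoxa5, Hoxa6, Hoxb1, Hoxb3, Hoxc4, Hoxc8, Hoxc12, Hoxd1 and Hoxd8, had log2 fold changes between -0.16 and 0.41.

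Of the non-coding RNAs and neighbouring genes within the Hox intervals, 33 were tested; 6 were called lower in the Dot1l-cKO and 0 higher, beside 1.2% and 1.99% of all genes (16 of either direction had an unadjusted p below 0.05), with a median log2 fold change of -0.38. The 6 were Hotair, the antisense RNA of HoxC between Hoxc11 and Hoxc12, Hoxaas2, Hoxaas3 and Gm15050 in HoxA, and Mir196a-1 and Gm53 in HoxB. These calls rested on single embryos to different degrees: of the 10 fits that left out 1 embryo, Gm53 was called in 8, Mir196a-1 in 7, Hotair and Hoxaas2 in 5 each, Gm15050 in 4 and Hoxaas3 in 2. The row of Mir196a-1, whose hairpin ends 6.19 kb before the start of Hoxb9, stood at 4.32, 4.31 and 4.21 CPM in controls 1 to 3 and at 2.20, 2.69 and 3.03 CPM in Dot1l-cKO 1 to 3, and at 4.30 and 3.74 against 3.02 and 2.48 CPM in litter 2. All Dot1l-cKO embryos were below all controls (log2 fold change -0.64 ± 0.12, adjusted p = 0.0208), and the call was lost without control 1, control 4 or Dot1l-cKO 5 (adjusted p up to 0.0746). Mature microRNAs were not measured, so this count is taken as that of longer transcripts that run over the hairpin, not of mature miR-196a. Its neighbour Gm53, a non-coding gene, fell from 34.5 to 40.9 CPM in controls to 25.5 to 32.2 CPM in Dot1l-cKO (-0.35 ± 0.06, adjusted p = 0.0193). Hotair stood at 14.9, 17.5 and 20.4 against 6.38, 10.6 and 11.6 CPM in litter 1 and at 11.5 and 15.2 against 10.3 and 8.07 CPM in litter 2 (-0.75 ± 0.16, adjusted p = 0.0306). With the Hox13 level in the model none of the 6 was called. Mir196a-1 was then at -0.60 (adjusted p = 0.0591), Gm53 at -0.29 (0.0603), Hoxaas2 at -0.56 (0.0567), Hoxaas3 at -0.54 (0.0809), Gm15050 at -0.71 (0.0560) and Hotair at -0.48 (0.156). Mir196a-2 was at 0.1497 to 0.388 CPM with no call (adjusted p = 0.580), and Mir196b had no counts in any embryo. Mir196b shares exon bases with Hoxa9 on the same strand, so its lack of counts cannot tell whether its locus was transcribed.

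The second comparison, litter 2 against litter 1, asked which Hox genes differ between the litters once the genotype is taken into account. Of the 37 genes tested, 18 differed, which is 48.6%, beside 36.4% of all genes. Higher in litter 2 were 16 (17.6% of all genes were higher), and lower were 2, Hoxb8 and Hoxd1 (18.7% of all genes were lower). All 3 of Hoxa2, Hoxa3 and Hoxa4 were higher, and so were Hoxb1, Hoxb4, Hoxc4, Hoxc5 and Hoxc6, and of the 9 tested genes of groups 11 to 13, 0 were called by edgeR, with an unadjusted p below 0.05 for Hoxb13 and Hoxd13, and DESeq2 called Hoxd13. The median log2 fold change was 0.43 for groups 1 to 4, 0.12 for groups 5 to 8, 0.26 for groups 9 and 10 and -0.02 for groups 11 to 13, beside 0.22 over the 37 genes and -0.01 over all genes. In 13 genes, all higher in litter 2, the 4 embryos of litter 2 were separate from the 6 of litter 1, beside 24.3% of all genes. The litters also differ in the controls' alleles and in the sex of the Dot1l-cKO embryos, which cannot be told apart from the litter itself. Of the 8 neural tube markers, the progenitor genes Nes (0.81 ± 0.07, adjusted p = 2.94e-06), Pax6 (0.64 ± 0.06), Sox2 (0.49 ± 0.08) and Sox1 (0.33 ± 0.09) were higher and Olig2 (-0.51 ± 0.12) and the neuronal gene Stmn2 (-0.18 ± 0.05) lower in litter 2 by the edgeR test. Their part in the Hox differences between litters was not tested.

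**Figure D5:**
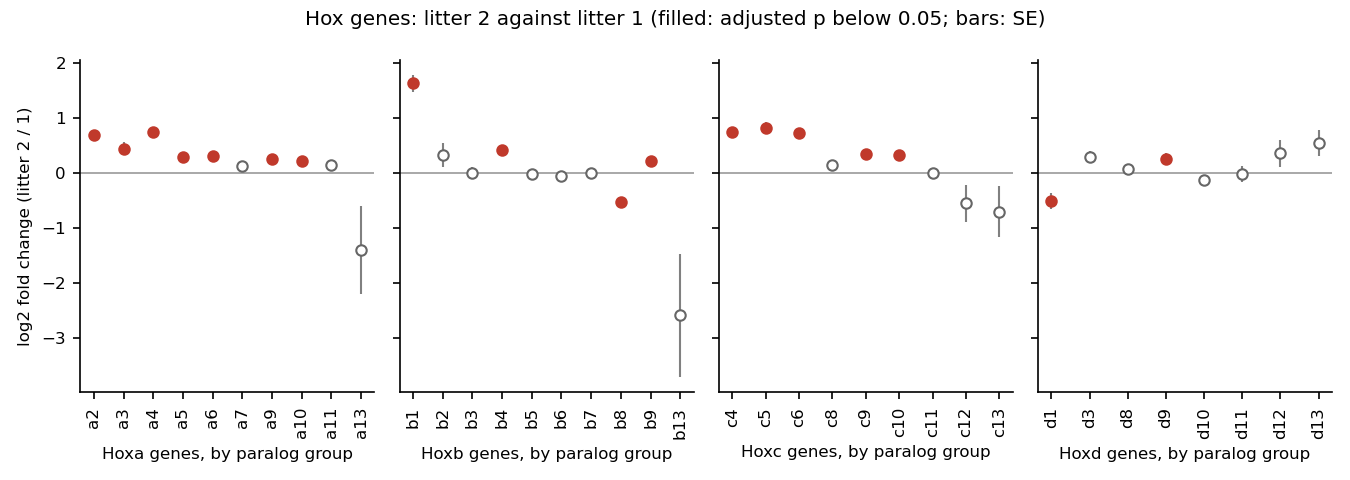
Log2 fold change of litter 2 over litter 1 for the 37 Hox genes tested, by cluster and paralog group, with standard errors from the edgeR fit with the genotype in the model. Filled points are the 18 genes with an adjusted p below 0.05, of which Hoxb8 and Hoxd1 lie below the line; Hoxb1, at 1.62, lies highest.

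The gene with the largest litter difference among those called was Hoxb1, which acts in the hindbrain. It stood at 1.35 to 2.08 CPM in the 6 embryos of litter 1 and at 5.28 and 6.55 CPM in controls and 5.13 and 4.06 CPM in Dot1l-cKO of litter 2 (log2 fold change 1.62 ± 0.16, edgeR adjusted p = 4.94e-06). Hoxc4, Hoxc5 and Hoxc6 were higher in litter 2 by 0.74 ± 0.06 (adjusted p = 1.31e-06), 0.81 ± 0.10 (3.42e-05) and 0.72 ± 0.07 (3.30e-06). Hoxc4 stood at 32.1, 32.9 and 32.2 CPM in controls and 32.2, 28.8 and 31.3 CPM in Dot1l-cKO of litter 1 and at 60.8, 55.3, 47.1 and 48.6 CPM in litter 2. In these 3 neighbouring genes of HoxC the litters did not overlap.

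Hoxa2, Hoxa3 and Hoxa4 differed by 0.70 ± 0.08 (adjusted p = 1.18e-05), 0.44 ± 0.12 (0.00946) and 0.74 ± 0.10 (6.06e-05). Hoxa4 stood at 4.32, 4.43 and 3.99 CPM in controls and 3.76, 3.42 and 3.85 CPM in Dot1l-cKO of litter 1 and at 7.21, 6.25, 7.09 and 5.84 CPM in litter 2. Hoxa3 stood at 11.5, 13.4 and 13.5 CPM and 12.4, 16.2 and 9.42 CPM in litter 1 and at 16.3, 17.2, 16.7 and 19.1 CPM in litter 2. For each of these genes litter 2 lay above litter 1 without overlap. Of the exon bases of Hoxa3, 25.4% face genes of the other strand, and of those of Hoxa4, 16.0%. Hoxaas2, which shares exon bases with Hoxa3, was itself higher in litter 2 (0.62 ± 0.11, adjusted p = 0.000613), and these pairs cannot be told apart in the counts. Hoxa2 shares exon bases with Gm28308 on its own strand. Hoxb4, with values given above, differed by 0.41 ± 0.08 (adjusted p = 0.000965), with overlap.

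Among the genes of groups 9 and 10, 6 of 7 were higher in litter 2. Hoxb9 differed by 0.22 ± 0.05 (adjusted p = 0.00388), Hoxc10 by 0.32 ± 0.07 (0.00385) and Hoxa10 by 0.22 ± 0.06 (0.00740). Hoxc9, which sets thoracic motor columns, stood at 50.7, 48.3 and 43.3 CPM in controls and 58.3, 50.3 and 50.2 CPM in Dot1l-cKO of litter 1 and at 62.4, 65.4, 60.5 and 66.2 CPM in litter 2 (0.34 ± 0.06, adjusted p = 0.000805). Hoxd10 did not pass (-0.13 ± 0.08, adjusted p = 0.240). Hoxb8 was the most abundant of the genes that were lower in litter 2 (-0.52 ± 0.06, adjusted p = 1.99e-05), so that Hoxb8 was the one gene called higher in the Dot1l-cKO and lower in litter 2. Hoxd1 stood at 3.35, 3.10 and 2.26 CPM in controls and 4.94, 3.55 and 3.90 CPM in Dot1l-cKO of litter 1 and at 2.15, 2.33, 2.54 and 2.78 CPM in litter 2 (-0.51 ± 0.15, adjusted p = 0.0140), and this call was lost without Dot1l-cKO 4 (adjusted p = 0.0572). Hoxa13 (-1.39 ± 0.79, adjusted p = 0.192) and Hoxb13 (-2.58 ± 1.118, adjusted p = 0.0875) had large and uncertain differences, with values that varied within both litters.

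The partners and inputs of the Hox genes were read from lists. Of the 11 TALE homeodomain cofactors, the MEIS, PBX, PKNOX and TGIF proteins that bind DNA with Hox factors, 0 differed between genotypes by the edgeR test (0 with an unadjusted p below 0.05) and 8 differed between litters, where 36.4% of all genes did, among them Meis1, Meis2, Meis3, Pbx2 (0.42 ± 0.05, adjusted p = 4.05e-05), Tgif1 and Tgif2, which were higher, and Pknox2, which was lower in litter 2. Of 21 tested genes of caudal, growth factor and retinoid signals that set the Hox domains, 1 fell in the Dot1l-cKO, beside 1.2% of all genes, the retinoic acid binding protein gene Crabp2 (-0.25 ± 0.06, adjusted p = 0.0484). Between litters, 15 were higher and 4 lower in litter 2, beside the 17.6% and 18.7% of all genes given above. The RNA-binding protein gene Lin28a (1.32 ± 0.21, adjusted p = 0.000252), the retinoic acid receptor gene Rara (0.72 ± 0.09, adjusted p = 2.50e-05) and the retinoic acid degrading enzyme gene Cyp26a1 (1.25 ± 0.24, adjusted p = 0.000945) were among those higher, with Crabp2, Acvr2b and Sall4 between 0.60 and 0.66, and Aldh1a3, of a retinoic acid synthesising enzyme, was lower (-0.75 ± 0.19, adjusted p = 0.00650).

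Among 17 genes of the motor columns that are set by the Hox code, 1 rose and 1 fell in the Dot1l-cKO, beside 1.99% and 1.2% of all genes. Nos1 rose (0.51 ± 0.09, edgeR adjusted p = 0.0178), at 24.3, 20.4 and 21.4 against 34.5, 27.7 and 29.2 CPM in litter 1 and at 18.6 and 15.8 against 22.5 and 29.2 CPM in litter 2. Mecom fell (-0.30 ± 0.08, edgeR adjusted p = 0.0493). Of the 17 genes, 9 had an unadjusted p below 0.05, in both directions. Of the cholinergic genes, Chat was at -0.29 (edgeR adjusted p = 0.117) and Slc18a3 at 0.38 (0.204). The Nos1 call was lost without Dot1l-cKO 5 (adjusted p = 0.0547). Foxp1, the partner of Hox factors in limb motor neurons, was not called between genotypes and was higher in litter 2 (0.27 ± 0.07, adjusted p = 0.00632), one of 10 genes of the list that were, beside 17.6% of all genes, with Nkx6-2, Pou3f1, Lhx3, Mnx1 and Lhx4 ahead at 0.58 to 0.71. Of 20 genes of the trithorax, polycomb and DOT1L complexes that act at Hox loci, 3 fell in the Dot1l-cKO, beside 1.2% of all genes, Mllt10 (-0.19 ± 0.05, adjusted p = 0.0453), whose product recruits DOT1L, and the polycomb genes Ezh2 (-0.24 ± 0.06, adjusted p = 0.0457) and Suz12 (-0.21 ± 0.04, adjusted p = 0.0288). Between litters, 10 genes of this list were higher in litter 2, beside 17.6% of all genes, Ezh2 (0.58 ± 0.06, adjusted p = 7.68e-06), Cbx2, Aff1, Eed and Suz12 by most, and Mllt6 was lower. The calls of Crabp2, Mecom, Mllt10 and Ezh2 were lost in 8 or 9 of the 10 fits that left out 1 embryo, and that of Suz12 in 6. With the Hox13 level in the model, none of Crabp2, Nos1, Mecom, Mllt10, Ezh2 and Suz12 was called (adjusted p 0.0659 to 0.257).

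Other tissue in the samples was measured beside these results. Among 14 dorsal root ganglion markers, Runx3 was lower in the Dot1l-cKO, a call kept in 2 of the 10 fits that left out 1 embryo, and 9 were lower and 0 higher in litter 2, beside 18.7% and 17.6% of all genes. The markers had sums of 1520 to 1741 CPM in litter 1 and 1247 to 1327 CPM in litter 2. Of 14 markers of mesenchyme, which also expresses Hox genes, 0 differed between genotypes by the edgeR test (1 with an unadjusted p below 0.05), with sums of 1067 to 1288 CPM against 713 to 1289 CPM in litter 1 and of 763 to 824 CPM against 1030 to 1057 CPM in litter 2. Within litter 2 alone, the collagen genes Col1a1 (log2 fold change 0.71, edgeR adjusted p = 0.00107) and Col2a1 (0.39, 0.00798) were called higher in the Dot1l-cKO. The limb genes Pitx1, Tbx4 and Tbx5 summed to at most 0.782 CPM. Blood, endothelial, microglial, muscle and tail-end markers had no call between genotypes over both litters by edgeR, but all 3 endothelial markers and 1 blood marker had an unadjusted p below 0.05. Within litter 2 alone, the muscle genes Actc1 (log2 fold change -2.02, edgeR adjusted p = 2.97e-06), Myog (-1.44, 0.00165) and Myod1 (-1.57, 0.00649) were lower and the globin genes Hba-a1 (1.47, 2.47e-05) and Hbb-bt (0.49, 0.0377) higher in the Dot1l-cKO. These genes were named after their values were seen. The part of these tissues in the Hox differences was not tested.

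The promoters of Hoxb8 and Hoxb4 are shown because these genes of 1 cluster changed in opposite directions. RefSeq sequences (GRCm38.p6, plus strand) of 250 bases before to 50 after the start were available for 22 of the 38 genes. The motifs searched on both strands were TTTATG, the binding motif of the caudal factors CDX, TATAAA, the TATA box, TGACAG, the motif of MEIS, and TGATTNAT, that of PBX with Hox, and their matches are in capitals. The promoter of Hoxb8 (chr11:96281655-96281954) held 2 matches of the CDX motif and 2 of the TATA box, and that of Hoxb4 (chr11:96318017-96318316) none of the motifs.
Hoxb8 promoter: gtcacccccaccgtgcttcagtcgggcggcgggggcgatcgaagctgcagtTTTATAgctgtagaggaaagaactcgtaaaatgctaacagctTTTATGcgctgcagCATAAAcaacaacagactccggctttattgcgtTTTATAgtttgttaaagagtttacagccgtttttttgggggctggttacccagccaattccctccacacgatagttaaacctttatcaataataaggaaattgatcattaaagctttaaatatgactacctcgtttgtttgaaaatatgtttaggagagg
Hoxb4 promoter: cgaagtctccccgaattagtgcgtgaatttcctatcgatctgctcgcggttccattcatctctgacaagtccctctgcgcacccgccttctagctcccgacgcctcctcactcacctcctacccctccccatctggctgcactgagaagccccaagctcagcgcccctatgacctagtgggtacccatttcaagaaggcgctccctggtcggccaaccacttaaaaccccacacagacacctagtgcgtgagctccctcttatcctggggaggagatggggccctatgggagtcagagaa
The CDX motif was found in 11.9% of 32851 promoters, the TATA box in 13.6%, the MEIS motif in 19.2% and the PBX with Hox motif in 3.22%. Of the 24 Hox promoters of these 22 genes, 5 held the CDX motif, those of Hoxa7, Hoxb8, Hoxd3, Hoxd4 and Hoxd11. Of these genes, Hoxa7 and Hoxb8 rose and Hoxd3 fell in the Dot1l-cKO. The TATA box was found for Hoxa10, Hoxb8, Hoxd4 and Hoxd13. The MEIS motif was found for Hoxa2 and Hoxa3, and the PBX with Hox motif for Hoxa2, which fell, and Hoxd11. Cdx1, Cdx2 and Cdx4 did not pass the filter on low counts, with at most 0.0703 CPM. The part of these motifs in the Hox differences was not tested.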

How the data were processed

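Lumbar cords of 10 embryos were sequenced. The deposited values are raw read counts for each gene, made by the authors, per the study's methods, with trimming by TrimGalore, alignment with STAR to mm10 and counting with featureCounts in snakePipes; the strand setting is not given in the sources used here. Gene positions came from GENCODE M21 (GRCm38), not the authors' release. The 38 genes and all lists were chosen with earlier results of these data known.

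In R 4.3.3, edgeR 4.0.16 tested litter and genotype in 1 model (TMM, default filter by group, quasi-likelihood test, Benjamini-Hochberg adjustment over 18901 genes, threshold 0.05), with limma 3.58.1 and DESeq2 1.42.0 as alternatives, and the script was tested on simulated data. There, false calls were 6.3% of the edgeR and 15.2% of the DESeq2 calls by genotype. By litter they were 6.3% and 22.4%, and for the difference between litters 11% and 18.5%. A standard error is the log2 fold change divided by the root of F. All values are named for genes that passed (at most 12 in each comparison by size), the 5 with the largest differences and the highest of each cluster; some genes of the other lists are not reported here. No 2 embryos of a group agreed within counting error (chi-square over genes, divided by their number, 8.59 to 76.9), so each counted as 1 replicate; floors cover counting error only.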

Additional observations from a re-analysis of the deposited data

Results flagged for a closer look

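Within each group of 5 embryos, the levels of the 38 Hox genes and the share of groups 9 to 13 were searched for an embryo far from the others, by Dixon's ratio of its gap to the group's range (above 0.71 for 5 samples). Chance alone gives about 1 such value in 20 groups, and 2 were found in 78 groups. Hoxb13 was at 8.34 CPM in Dot1l-cKO 2, while the other 4 Dot1l-cKO embryos were at 0 to 0.176 CPM (ratio 0.979). Hoxa10 was at 149 CPM in Dot1l-cKO 5 and at 128 to 133 CPM in the other 4 (ratio 0.761). No Hox gene had opposite genotype differences in the litters without overlap or passed the test of the difference between litters.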

How the results depend on the processing

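The count of 13 Hox genes called by genotype was 15 with DESeq2, 13 with its size factors, 12 with limma-voom, 11 with the robust fit, 12 with library size only and 13 with each other filter. It was 21 with no filter, 7 with the Hox13 level in the model, 0 without the litter term and 1 in litter 1 alone, and 4 to 15 with 1 embryo left out. The model with the Hox13 level and the filter by model matrix were chosen after seeing the data. The 18 called by litter were 17 to 20 with 1 embryo left out and 11 in the Dot1l-cKO alone. The 0 genes whose genotype effect differed between litters became 2 with no filter, Hoxb13 and Hoxc13, and 0 to 1 with 1 embryo left out, Hoxc12 without Dot1l-cKO 2. The mean share of groups 9 to 13 stayed within 1 SD under both other lengths, and with 1 embryo left out it was 57.4 to 58.3% in controls and 49.6 to 51.2% in Dot1l-cKO. With the Hox13 level in the model, which is built from these genes, log2 fold changes by genotype of Hoxa13, Hoxb13 and Hoxc13 turned to 0.66, 0.19 and 0.11, and by litter those of Hoxa13 and Hoxb13 to 0.64 and 0.42. Values near 0 also turned: Hoxa10 and Hoxc10 to 0.019 and 0.0033 in litter 1 alone, and Hoxc10 and Hoxd10 without control 4, where with 1 embryo left out Hoxc10 ranged from -0.106 to 0.0087 and Hoxd10 from -0.11 to 0.0067. The cause of these changes was not tested. No paired analysis was possible because the replicate numbers name embryos and pair none across genotypes.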
